A study of Drosophila melanogaster with 12 samples.

Results

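RNA was sequenced from single heads of female fruit flies labelled as SIRT6 knockout (KO) that had eaten either an inhibitor of the enzyme TDO2 or its solvent. The members are the 6 libraries, of 12 in all, that carry this genotype label: 3 with inhibitor and 3 with dimethyl sulfoxide (DMSO). They were chosen by genotype and treatment alone, and the libraries with inhibitor were compared with those with DMSO. Per the labels, the inhibitor was 680C91, given at 100 µM in the food from eclosion, and all flies were females killed at 21 days, read as unmated from the word "verging", taken here for virgin. The other 6 libraries hold the same treatments in w1118, a white-eyed laboratory strain, again 3 with inhibitor and 3 with DMSO. Every group therefore received the solvent, and no group was fed plain food. How the knockout was made and in which genetic background is not given in the sources used here, and every library was made from 1 head.

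Tryptophan dioxygenase, the product of the fly gene vermilion (v), opens the ring of tryptophan and so starts the kynurenine pathway. In flies the pathway leads through hydroxykynurenine to the brown eye pigments, the ommochromes, and a side branch makes kynurenic acid. Loss of vermilion function changes eye colour and raises tryptophan, which is also the precursor of serotonin. SIRT6 is a NAD-dependent enzyme that removes acyl groups from histones, and in mammals the kynurenine pathway is a source of NAD. The comparison asks which transcripts of the head differ when flies with the KO label eat the inhibitor.

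The transcript of the gene named by the knockout label was present in all 6 heads. Counts of Sirt6 (FBgn0037802, on 3R from 10255349 to 10261849 of BDGP6.54) were 70, 78 and 88 in untreated KO heads and 90, 84 and 84 in treated ones. The w1118 heads gave 68, 147 and 102 untreated and 47, 56 and 63 treated, so KO means the label throughout and the loss of the gene could not be read from its RNA. The treated and untreated KO heads overlapped, at a log2 change of 0.07 (SE 0.18, 95% interval -0.32 to 0.46). The 6 KO libraries held 32694212 to 44545859 counts, where the detection floor of 3 counts equals 0.0703 to 0.0957 CPM (counts per 1000000 gene counts, for the floor before scaling of library sizes). With scaled library sizes, untreated heads had Sirt6 at 1.95 to 2.34 CPM in KO and 2.46 to 2.71 CPM in w1118, so KO lay below. Treated heads had it at 2.01 to 2.50 CPM in KO and 1.37 to 1.996 CPM in w1118, so there KO lay above. The tissue label fitted its markers: the summed level of 8 photoreceptor genes was 18250 to 24880 CPM and that of 4 neuronal genes 1582 to 1835 CPM in KO. The 5 ovary markers summed to 1.09 to 2.82 CPM and the 4 midgut markers to 0.625 to 1.41 CPM. In w1118, the libraries numbered 2 stood apart: the yolk protein genes took 0.417% of counts with DMSO and 1.87% with inhibitor there, against 18.2% to 21.2% in the other 4. Comparisons in w1118 that rest on them are also given without both, a choice made after seeing the data that leaves 2 against 2. Since whole heads were sequenced, fewer cells of a type and less RNA per cell cannot be told apart in any value below.

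No gene separated the treated from the untreated KO heads past the threshold. Levels are CPM with TMM-scaled library sizes, changes are log2 (inhibitor minus DMSO) from edgeR's quasi-likelihood model of all 12 libraries, and a gene was called at an adjusted p under 0.05. Of 14154 genes tested, 0 were called (0%), and the smallest adjusted p was 0.665. At an unadjusted p under 0.05 there were 520 genes (3.67%), of which 277 (1.96%) were higher and 243 (1.72%) lower with inhibitor. With no effect, a share of 0.05 would be expected on average. DESeq2 called 63 genes and limma's voom with sample quality weights called 3, which were Achl, roX2 and CG43327. The median SE of a log2 change was 0.25, and 6895 genes had a positive and 7255 a negative change, with a median of -0.0056.

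The 3 treated and 3 untreated KO libraries did not overlap for 1841 genes (13%), 942 of them higher (6.66%) and 899 lower (6.35%) with inhibitor. With 3 against 3 and no effect, a share of 0.1 would separate on average, both directions together. In w1118 the same model called 0 genes (0%), with 1046 at an unadjusted p under 0.05 (7.39%), and 9 genes without the libraries of low yolk share. The difference between the inhibitor effects of the genotypes was called for 0 genes (0%) by edgeR and by voom and for 62 by DESeq2, with 683 at an unadjusted p under 0.05 (4.83%) and a smallest edgeR adjusted p of 0.495. Groups that did not overlap in either genotype had the same direction for 125 genes (0.883%) and opposite directions for 66 (0.466%).

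**Figure D1:**
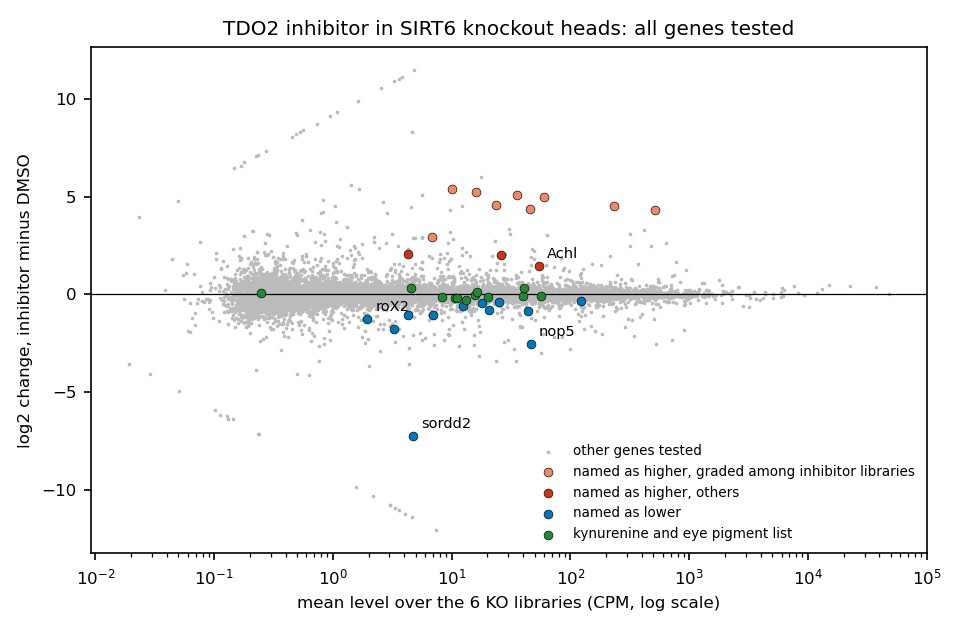
Each point is 1 of the 14154 genes tested; the horizontal axis is its mean level over the 6 KO libraries (CPM, log scale) and the vertical axis its log2 change, inhibitor minus DMSO. The 12 genes named as higher, the 12 named as lower and the 12 kynurenine and eye pigment genes are coloured; of the 12 higher genes, 9 lie at 2.96 or above.

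The pathway of the drug's target showed no called change at the RNA level. Of 13 genes listed for tryptophan breakdown, eye pigment and tryptophan transport, 12 were found and tested, 0 were called and 0 had an unadjusted p under 0.05. The KO groups did not overlap for 4 of the 12, all 4 lower with inhibitor, where 6.35% of all genes were lower with no overlap, and the median change of the 12 was -0.09, beside -0.0056 over all genes. In w1118 the median of the same 12 was -0.38, with 4 at an unadjusted p under 0.05, and without the libraries of low yolk share it was 0.04, with 1. The target itself, v (FBgn0003965, on X from 10923972 to 10925631), stood at 48.0, 39.3 and 21.7 CPM with DMSO and at 50.6, 43.8 and 43.3 CPM with inhibitor. The groups overlapped, with the DMSO library of replicate 3 lowest, and the change was 0.34 (SE 0.85, 95% interval -1.56 to 2.24). The model shares 1 estimate of spread among all libraries, and in w1118 with DMSO v lay at 61.2, 2.12 and 93.0 CPM.

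KFase, the formamidase of the next step, had the smallest p of the list. Its level was 14.7, 14.8 and 14.3 CPM with DMSO and 12.7, 12.1 and 11.4 CPM with inhibitor. All 3 treated heads lay below all 3 untreated ones, at a change of -0.28 (SE 0.15, 95% interval -0.62 to 0.07, edgeR adjusted p = 1). KFase overlaps Daxx on the other strand in the annotation. Cinnabar (cn), the kynurenine monooxygenase, was close to the floor at 0.158 to 0.330 CPM with DMSO and 0.231 to 0.287 CPM with inhibitor, from 7 to 12 counts. Its groups overlapped, and the change was 0.06 with an SE of 0.35. Kyat, the aminotransferase that makes kynurenic acid, was at 44.1, 38.2 and 41.9 CPM with DMSO and 44.9, 37.7 and 34.8 CPM with inhibitor, with overlapping groups (change -0.08, SE 0.31).

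The transporters of pigment precursors into eye granules were next. Scarlet (st), which pairs with white for ommochrome precursors, stood at 11.3, 12.5 and 11.5 CPM with DMSO and 10.3, 9.74 and 10.8 CPM with inhibitor. Brown (bw), which pairs with white for the red pteridines, was at 59.0, 55.91 and 61.3 CPM with DMSO and 55.0, 55.87 and 53.4 CPM with inhibitor. Both groups of treated heads lay below the untreated ones by small margins, at changes of -0.20 for st (SE 0.20) and -0.10 for bw (SE 0.21). White (w) itself went the other way, at 3.73, 4.05 and 4.43 CPM with DMSO and 5.88, 5.10 and 4.196 CPM with inhibitor, with 1 treated head inside the untreated range (change 0.31, SE 0.20). In w1118, the white-eyed strain, this row was at 3.56 to 5.94 CPM. Cardinal (cd), a peroxidase of the last pigment step, overlapped between groups at 8.22 to 8.83 CPM with DMSO and 7.41 to 8.40 CPM with inhibitor. The remaining members were the amino acid transporters JhI-21 (change -0.13), mnd (0.10) and slif (-0.20), and the tryptophanyl-tRNA synthetase TrpRS (-0.02, SE 0.09, 95% interval -0.23 to 0.19). Among these 4, the groups did not overlap for slif alone, at 10.6 to 12.3 CPM with DMSO and 9.52 to 10.2 CPM with inhibitor.

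**Figure D2:**
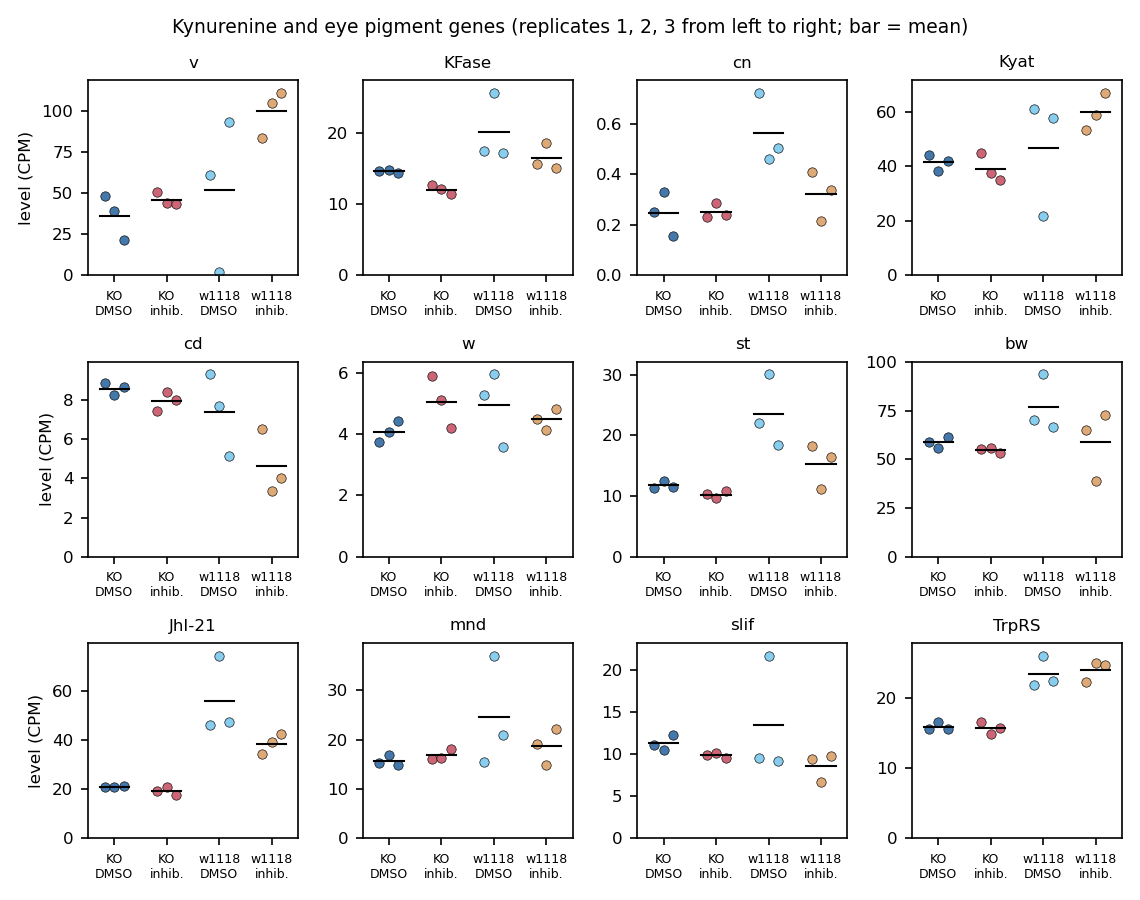
Level in CPM (vertical axis, from 0) of the 12 genes in each of the 12 libraries, by genotype and treatment; points are single heads in the order of their replicate numbers and bars are means of 3. In KO, the treated heads lie below the untreated ones for KFase, st, bw and slif, and the groups overlap for the other 8 genes.

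A pair of genes stood at the head of the comparison by p, one in each direction, and both had tight groups. Achilles (Achl, FBgn0033936, on 2R), a clock-controlled gene whose knockdown in neurons raises immune gene expression, was at 36.2, 22.9 and 28.8 CPM with DMSO and at 76.96, 83.2 and 78.4 CPM with inhibitor. Each treated head was more than 2 times as high as every untreated one. The change was 1.44 (SE 0.23, 95% interval 0.93 to 1.95, edgeR unadjusted p = 9.4e-05, adjusted p = 0.665). Across 23 alternatives the change was 1.28 to 1.62, and the adjusted p passed in 3, with DESeq2, with voom (0.0106) and in the model without either w1118 library numbered 2 (0.0475). In w1118 Achl went the other way, from 116, 167 and 107 CPM with DMSO to 71.4, 64.7 and 101 CPM with inhibitor (change -0.71, SE 0.23). The difference of the 2 changes was 2.15 (SE 0.32, edgeR unadjusted p = 5.5e-05, adjusted p = 0.495), so it did not pass over all genes. Without the w1118 libraries of low yolk share, the w1118 change of Achl was -0.34 (SE 0.21) and the difference 1.78 (SE 0.27, edgeR adjusted p = 0.571).

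The gene with the smallest p was roX2 (FBgn0019660, on X from 11579065 to 11580432), one of the noncoding RNAs that guide the dosage compensation complex to the X chromosome of males. In these females it was low, at 2.26, 3.21 and 2.86 CPM with DMSO and 1.11, 1.196 and 1.101 CPM with inhibitor, from 81 to 127 and 37 to 50 counts. All 3 treated heads lay below all 3 untreated ones, and the change was -1.29 (SE 0.20, 95% interval -1.73 to -0.85, edgeR unadjusted p = 6.6e-05, adjusted p = 0.665). It passed with DESeq2 (adjusted p = 0.000127) and voom (0.0342), and its change was -1.41 to -1.17 over 23 alternatives. In w1118 it was lower with inhibitor too, at 3.04, 2.07 and 2.31 CPM against 0.877, 0.784 and 0.679 CPM (change -1.66, SE 0.20, edgeR adjusted p = 0.136), and without the libraries of low yolk share its change there was -1.75 (SE 0.24). The partner RNA roX1 was at 49.8, 58.8 and 57.7 CPM with DMSO and 49.2, 36.6 and 32.9 CPM with inhibitor in KO (change -0.49, SE 0.21, edgeR adjusted p = 1), and its 3 treated heads lay below the untreated ones, 1 of them only just. The roX1 locus overlaps the gene ec on the other strand, and the labelled kit does not mark strand, so reads of a gene and of an overlapping partner cannot be told apart here.

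Culd, a membrane protein that photoreceptors need for the endocytosis of rhodopsin, was singled out after its values were seen, for its narrow groups. It was at 1031, 1054 and 1050 CPM with DMSO and at 1604, 1486 and 1551 CPM with inhibitor. The group means were 1045 CPM ± 12.6 and 1547 CPM ± 58.8 (SD, n = 3 each), with a change of 0.57 (SE 0.15, edgeR unadjusted p = 0.0041, adjusted p = 1), and DESeq2 called it (adjusted p = 0.0259). In w1118 Culd was at 381 to 563 CPM with DMSO and 407 to 441 CPM with inhibitor, with overlapping groups. The plot of 6 selected genes shows these levels head by head.

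**Figure D3:**
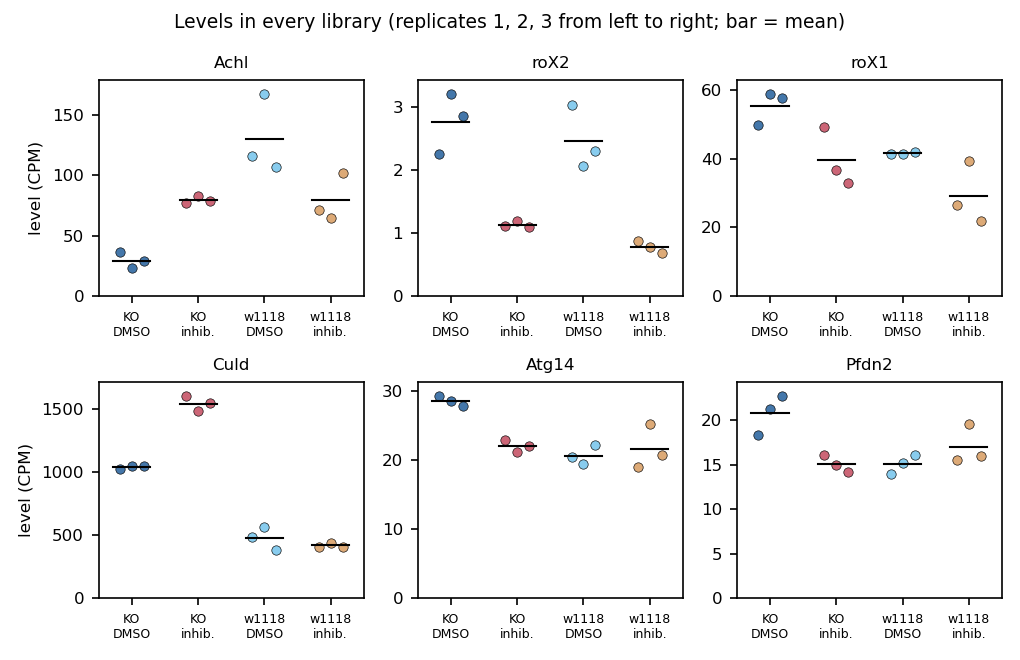
Level in CPM (vertical axis, from 0) of Achl, roX2, roX1, Culd, Atg14 and Pfdn2 in each of the 12 libraries, by genotype and treatment; points are single heads and bars are means of 3. In KO the treated and untreated heads are apart for all 6 genes, and in w1118 Achl, roX2 and roX1 are lower with inhibitor.

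Most of the genes named as higher with inhibitor had the same order of treated heads. The rule for naming took the 12 genes of smallest p in each direction with a mean of at least 1 CPM and no overlap in KO. Of the 12 higher ones, 9 differed by 7.84-fold to 33.5-fold between the treated heads themselves, with replicate 1 lowest and replicate 3 highest in all 9. They were CG13708, CG30378, CG11703, CG15255, CG17991, CG4679, the serine protease genes Phae2 and Ser6, and btd, a zinc finger factor of head segmentation. In the annotation CG30378 overlaps azot on the same strand and CG14764 on the other, and CG15255 overlaps lncRNA:CR44865 on the other strand. CG4679, the most abundant, was at 31.3, 75.3 and 39.5 CPM with DMSO and at 107, 641 and 2209 CPM with inhibitor. Phae2 was at 0.446, 0.510 and 0.450 CPM with DMSO and at 1.74, 10.8 and 46.3 CPM with inhibitor. The level of btd was 2.79, 6.42 and 3.49 CPM with DMSO and 8.91, 53.3 and 201 CPM with inhibitor.

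Among the untreated heads, replicate 2 was highest for all 9. The changes were 2.96 to 5.38 (edgeR unadjusted p = 0.00081 to 0.00185, adjusted p = 1), and without the treated head of replicate 3 they were 1.79 to 3.87. DESeq2 called all 9. A 28S ribosomal RNA pseudogene, 28SrRNA-Psi:CR40596, also had replicate 2 highest with DMSO and, with inhibitor, replicate 1 lowest and replicate 3 highest. It was at 27.4, 163 and 37.1 CPM with DMSO and 74.4, 461 and 1728 CPM with inhibitor, and its groups overlapped. Of the 4 most abundant such pseudogenes, 3 had replicate 2 highest with DMSO and, with inhibitor, replicate 1 lowest and replicate 3 highest. The other, 28SrRNA-Psi:CR45851, had replicate 2 lowest with DMSO and replicate 3 lowest with inhibitor. It was at 218.5, 0.390 and 279.2 CPM with DMSO and 289.6, 687.5 and 17.8 CPM with inhibitor. Less abundant 28S pseudogenes did not all have replicate 2 highest with DMSO. There, 28SrRNA-Psi:CR45862 had 227, 0 and 159 counts and 28SrRNA-Psi:CR45860 had 82, 83 and 152. For all 9 genes the untreated KO heads lay below every w1118 head and the treated head of replicate 3 above every one, with w1118 at 246.5 to 1111 CPM for CG4679. All rows named as ribosomal RNA together took 1.96% ± 0.638 (SD, n = 3) of counts with DMSO and 1.79% ± 0.521 (SD, n = 3) with inhibitor in KO, with overlapping groups (exact permutation p = 0.6). The part of this ordering in the differences between treatments was not tested. Of the 942 genes that were higher with no overlap, 38 had replicate 1 lowest, replicate 3 highest and at least 5-fold between them. For 26 of these 38, replicate 2 was highest with DMSO.

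**Figure D4:**
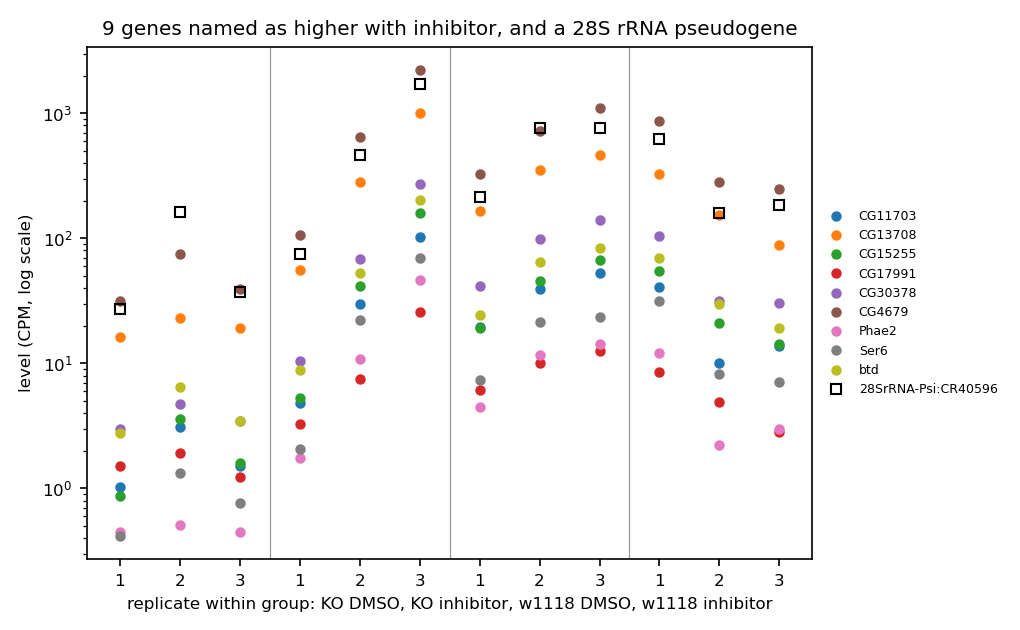
Level (vertical axis, CPM, log scale) of the 9 genes and of the pseudogene 28SrRNA-Psi:CR40596 in each of the 12 libraries, grouped by genotype and treatment. In KO with inhibitor, replicate 1 is lowest and replicate 3 highest for all 10 rows, and with DMSO replicate 2 is highest.

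The other 3 higher genes were Achl, lncRNA:CR45761 and CG10185. The long noncoding RNA lncRNA:CR45761 was at 2.28, 1.11 and 1.53 CPM with DMSO and 5.53, 4.83 and 10.6 CPM with inhibitor (change 2.09, SE 0.43, edgeR adjusted p = 1). It overlaps side-III on the other strand. CG10185 was at 14.3, 4.11 and 13.0 CPM with DMSO and 29.998, 37.1 and 58.7 CPM with inhibitor (change 2.00, SE 0.43). For both genes the lowest treated head lay above the highest untreated one, and DESeq2 called both (adjusted p = 0.00053 and 0.00174). In w1118 CG10185 was at 2.16 to 3.74 CPM in all 6 libraries, with overlapping groups. CG10185 overlaps msps on the other strand.

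Among the genes named as lower, several had narrow groups. Atg14, a subunit of the lipid kinase complex that starts autophagosomes, was at 29.2, 28.5 and 27.8 CPM with DMSO and 22.9, 21.2 and 22.0 CPM with inhibitor. Pfdn2, a subunit of the prefoldin chaperone, was at 18.3, 21.3 and 22.7 CPM with DMSO and 16.1, 15.0 and 14.2 CPM with inhibitor. Gprk2, a kinase of G protein coupled receptors, was at 132, 133 and 145 CPM with DMSO and 111, 107 and 112 CPM with inhibitor. These 3 had a gap between the groups, at changes of -0.37 (SE 0.11), -0.46 (SE 0.12) and -0.31 (SE 0.10), and in the annotation each overlaps a gene on the other strand (yem, Mocs1 and PNPase). Their w1118 changes were 0.07, 0.18 and -0.16, with overlapping groups. Without the w1118 libraries of low yolk share they were -0.08 (SE 0.08), 0.09 (SE 0.13) and -0.25 (SE 0.08). For Gprk2 the difference between genotypes was then -0.06 (SE 0.11). Adgf-A, a secreted adenosine deaminase, was at 23.9, 27.6 and 26.3 CPM with DMSO and 10.5, 14.2 and 20.6 CPM with inhibitor (change -0.78, SE 0.24). It overlaps Adgf-A2 on the same strand and CG32182 and CG32181 on the other. Changes of -0.61 to -1.76 were found for CG40486 (SE 0.18), CG32726 (SE 0.30), CG30338 (SE 0.27) and CG33017 (SE 0.47), all with an edgeR adjusted p of 1. Among them DESeq2 called CG33017 alone (adjusted p = 0.0402). CG30338 overlaps CG1902 on the same strand and clos on the other.

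For several genes the untreated head of replicate 2 was far above the other heads. The ribonucleoprotein gene nop5, which encodes a core protein of snoRNA particles, was at 26.5, 164 and 47.2 CPM with DMSO and 10.1, 13.7 and 16.4 CPM with inhibitor. DESeq2 called it (adjusted p = 0.00724). Without the untreated head of replicate 2 its change moved from -2.57 to -1.47. That of bdg, a transporter of the neurotransmitter symporter family, moved from -0.85 to -0.45. The ubiquitin ligase gene sordd2 had 931 counts in that head and 8 and 11 in the other untreated ones, against 3, 4 and 0 in the treated heads. Its treated heads lie at or near the floor, so no fold is given. ND-39, a subunit of respiratory complex I, was at 220, 836 and 235 CPM with DMSO and 146, 155 and 234 CPM with inhibitor, so its groups overlapped, and its change moved from -1.27 to -0.36 without the same head. The gene nop5 overlaps x16 on the same strand.

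Several of the extreme fold changes came from genes that share 1 interval. CG42557 and CG42558 (both on 3R from 29933287 to 29934587) were summed before testing. CG42557 had 0 counts in each untreated head and 658, 613 and 468 with inhibitor, while CG42558 had 531, 485 and 753 counts with DMSO and 0 in each treated head. Their sum was 14.8, 14.6 and 16.9 CPM with DMSO and 15.2, 14.7 and 13.9 CPM with inhibitor, with overlapping groups and a change of -0.08 (SE 0.11, edgeR unadjusted p = 0.50). Kept apart, CG42558 would have been the only gene called (edgeR adjusted p = 0.0366). Another pair, on 2R, divided in the same way: CG13175 had 281, 223 and 246 counts with DMSO and 0 with inhibitor, and CG33964 had 0 with DMSO and 300, 244 and 225 with inhibitor. The summed level of that pair was 6.69 CPM ± 1.15 with DMSO and 6.49 CPM ± 0.580 with inhibitor (SD, n = 3 each; two-sided exact permutation p = 1). The pair CG43327 and CG43328 summed to 2.78 CPM ± 0.353 and 3.01 CPM ± 0.233 (SD, n = 3 each; exact permutation p = 0.4). CG43327 had 0 counts in each untreated head and 88, 86 and 55 with inhibitor, while CG43328 had 96, 83 and 141 with DMSO and 34, 37 and 55 with inhibitor.

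Calls made by smaller models rested in part on the same pairs and on genes that were very high in 1 w1118 library. The model of the 6 KO libraries alone called 6 genes and the model without either w1118 library numbered 2 called 9, with 4 in both. Of the 6, CG13175, CG33964 and CG43327 belong to the pairs, and CG42571, lncRNA:CR46480 and lncRNA:CR44151 are among 60 genes that stood at 100 CPM or more, and at least 20 times every other library, in replicate 2 of w1118 with inhibitor. Of the 9, 6 are among the 60. In KO these 60 genes summed to 187.3, 198.7 and 187.7 CPM with DMSO and 235.9, 250.8 and 261.2 CPM with inhibitor. All 3 treated sums exceeded all 3 untreated ones, their sum in that w1118 library was 24110 CPM, and 38 of the 60 were higher with no overlap, where 6.66% of all genes were, with 1 of the 60 at an unadjusted p under 0.05. In the other w1118 libraries the sum was 163.9 to 185.8 CPM with DMSO and 240.8 and 269.3 CPM with inhibitor. The part of that library in these values was not tested. Outside the pairs and the 60 genes, the 9 calls held Achl and pre-mod(mdg4)-AE.

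The gene lists gave no called member, so what follows gives counts and medians. Over all genes, 3.67% had an unadjusted p under 0.05, 6.66% were higher and 6.35% lower with no overlap, and the median change was -0.0056. The 26 lists were tested through 617 distinct genes, of which edgeR called 0, and DESeq2 and voom each called 1, roX2. Serotonin and dopamine genes leaned upward by little, with 18 of 21 higher with inhibitor and a median change of 0.10, and 0 at an unadjusted p under 0.05. The serotonin receptor gene 5-HT1B had groups apart, at 16.1, 17.6 and 18.9 CPM with DMSO and 20.3, 22.4 and 19.2 CPM with inhibitor (change 0.24, SE 0.13). So did the dopamine receptor gene Dop1R2 (0.17, SE 0.14) and tan (t), whose product recycles dopamine and histamine from their conjugates (0.36, SE 0.35). In w1118, 5-HT1B was also higher with inhibitor (0.48, and 0.34 without the libraries of low yolk share). The serotonin synthesis enzyme Trhn stood at 8.33 to 9.44 CPM with DMSO and 7.87 to 9.22 CPM with inhibitor and the serotonin transporter SerT at 17.0 to 19.0 and 18.4 to 18.9 CPM, both overlapping. The gene speck, an amine acetyltransferase gene, lay lower, at 31.9 to 35.2 CPM with DMSO and 28.3 to 31.1 CPM with inhibitor.

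NAD and sirtuin genes had 4 of 11 higher and a median of -0.03. Naam, the nicotinamidase that salvages NAD, was at 2.67, 3.15 and 2.54 CPM with DMSO and 5.69, 6.08 and 2.77 CPM with inhibitor (change 0.80, SE 0.32, edgeR unadjusted p = 0.030, adjusted p = 1). Of its treated heads 2 were high and 1 was within the untreated range. Parp1, which consumes NAD at DNA breaks, did not overlap, at 38.1 to 40.8 CPM with DMSO and 44.2 to 48.2 CPM with inhibitor (0.21, SE 0.15). Sirt1, Sirt2, Sirt4 and Sirt7 overlapped, with changes of 0.10, -0.05, -0.04 and -0.02.

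Genes of drug and toxin breakdown were spread in both directions. Of 86 cytochrome P450 genes, 40 were higher, 2 had an unadjusted p under 0.05 and the median was -0.02. Cyp4ae1 was at 3.09, 3.00 and 3.29 CPM with DMSO and 3.75, 3.76 and 4.67 CPM with inhibitor (0.38, SE 0.14), and its w1118 change was -0.40 (-0.26 without the libraries of low yolk share). Cyp12a5 had its high value in 1 treated head, at 21.2, 25.1 and 59.3 CPM against 16.9 to 22.9 CPM. Of 33 glutathione transferase genes, 24 were lower (median -0.12), with GstE4 at 1.67, 1.14 and 2.02 CPM with DMSO and 1.02, 0.407 and 0.357 CPM with inhibitor (-1.43, SE 0.48) and GstO2 at -0.23 (SE 0.10). The 34 UDP-glucuronosyltransferase genes divided into 17 higher and 17 lower (median -0.01). Ugt35E1 was at 1.56, 1.23 and 1.78 CPM with DMSO and 2.62, 2.87 and 2.56 CPM with inhibitor (0.81, SE 0.26), and Ugt37D1 at 32.3, 31.8 and 32.9 CPM and 25.9, 26.3 and 23.6 CPM (-0.36, SE 0.12). Both sets of groups were apart, and neither gene passed over all genes. The antioxidant list had 13 of 15 lower (median -0.12), and the smallest p were those of Sod3 (-0.17, SE 0.10) and Gclc (-0.12, SE 0.11). Of its 15 genes, 10 were lowest in the treated head of replicate 3 and 10 were highest in the untreated head of replicate 1.

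Host defence genes were highest in 1 untreated head. Of 36 antimicrobial and immune genes, 22 were lower with inhibitor (median -0.27) and 2 had an unadjusted p under 0.05, and 20 were highest in the untreated head of replicate 1, 15 of them at least 2 times every other KO head. The antibacterial peptide gene DptA was at 181, 7.11 and 4.43 CPM with DMSO and 11.7, 1.65 and 4.97 CPM with inhibitor, and its change moved from -3.39 (SE 2.01) to 0.09 without that head. IBIN, a short infection-induced peptide gene, was at 10.1, 0.690 and 0.450 CPM with DMSO and 0.231, 0.215 and 0.446 CPM with inhibitor, and moved from -3.66 (SE 1.497) to -0.94. PGRP-SC1b, whose product degrades peptidoglycan, did not overlap, at 0.652 to 1.17 CPM with DMSO and 0.324 to 0.479 CPM with inhibitor (-1.15, SE 0.42). Another 12 of the 36 were highest in the treated head of replicate 2, among them the Bomanin gene BomBc1 at 152 CPM there and 27.1 to 46.0 CPM in the other 5 KO heads. The Turandot stress peptides and JAK-STAT genes had 8 of 10 higher (median 0.25), with TotA at 30.5, 74.8 and 13.5 CPM with DMSO and 181, 90.9 and 47.6 CPM with inhibitor (1.43, SE 1.09). The median over the 6 members with a mean of at least 1 CPM was 1.073. TotM was at 1.26 (SE 0.96), with 0.19 without the treated head of replicate 1 and 2.41 without the untreated head of replicate 2.

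Heat shock genes were lower with inhibitor for 14 of 17 (median -0.28, 0 at an unadjusted p under 0.05), and here the untreated head of replicate 1 was the low one for 7. Hsp26 was at 9.92, 24.0 and 20.1 CPM with DMSO and 9.40, 8.85 and 11.7 CPM with inhibitor (-0.85, SE 0.40), and Hsp22 at 11.0, 30.8 and 15.6 CPM and 8.56, 14.7 and 7.08 CPM (-0.92, SE 0.45). The first untreated head lay among the treated ones for both, so the groups overlapped. The near-identical Hsp70 copies cannot be told apart by short reads with certainty, and their sum is not given here. Of 12 genes of the amino acid stress response, 5 were higher (median -0.02), with Cbs at -0.76 (SE 0.55) and PEK at -0.17 (SE 0.13).

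Clock genes differed little. Of 12, 6 were higher (median 0.01), and the groups overlapped for all 12, with per at 243, 292 and 272 CPM with DMSO and 255, 311 and 330 CPM with inhibitor (0.15, SE 0.19) and dco at 0.07 (SE 0.09). Insulin and adipokinetic genes had 13 of 17 higher (median 0.10). The insulin-like peptide gene Ilp2 was at 45.9, 53.4 and 47.1 CPM with DMSO and 58.4, 59.0 and 49.1 CPM with inhibitor (0.19, SE 0.17), while its change in w1118 was -0.61 (SE 0.17), and the difference of the 2 was 0.80 (edgeR adjusted p = 0.972). Without the w1118 libraries of low yolk share these were -0.29 and 0.47. Ilp5 was at 0.35 (SE 0.39) on the log2 scale in KO. None of these differences was called.

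Lists of cell types leaned in different directions. Of 11 muscle genes tested, 11 were lower (median -0.16) and 4 did not overlap, where 6.35% of all genes were lower with no overlap. Act79B was at 20.03, 20.7 and 19.7 CPM with DMSO and 16.5, 17.7 and 14.3 CPM with inhibitor (-0.32, SE 0.11, edgeR unadjusted p = 0.019, adjusted p = 1), and the troponin T gene up at 81.7, 77.9 and 67.9 CPM and 61.4, 67.1 and 61.7 CPM (-0.26, SE 0.21). Of the 4 muscle markers, the myosin heavy chain gene Mhc had groups apart, at 962.5 to 1104 CPM with DMSO and 807.5 to 917.7 CPM with inhibitor, and made up nearly all of their sum. Act88F overlapped at 4.99 to 6.57 and 4.85 to 6.13 CPM, as did fln at 1.55 to 1.62 and 1.28 to 1.64 CPM, and TpnC4 was near the floor. Of 12 neuronal genes, 11 were higher (median 0.15), with the sodium channel gene para at 0.25 (SE 0.17) and the synaptic vesicle gene Syt1 at 0.21 (SE 0.20). The 18 photoreceptor genes had 11 higher (median 0.05), with arrestin Arr2 at 5915, 4954 and 5205 CPM with DMSO and 6536, 6520 and 7328 CPM with inhibitor (0.34, SE 0.23) and the scaffold inaD at 0.33 (SE 0.18). The rhodopsin Rh3 was lower, at 721 to 785 and 620 to 695 CPM. Rh4 overlapped at 981 to 1192 and 864 to 989 CPM, as did Rh5 at 193 to 216 and 170 to 201 CPM. Rh6 overlapped at 323.5 to 351.5 and 264 to 341 CPM, and the rhodopsin ninaE at 9345 to 14590 and 13850 to 14950 CPM. The photoreceptor marker norpA was higher with no overlap, at 1036 to 1228 and 1248 to 1337 CPM. Glial genes were 6 of 12 higher (median 0.00), with moody apart at 65.6 to 73.9 and 78.1 to 83.7 CPM and alrm overlapping at -0.17 (SE 0.19). The shares of muscle, nerve and eye tissue in these heads were not tested.

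**Figure D5:**
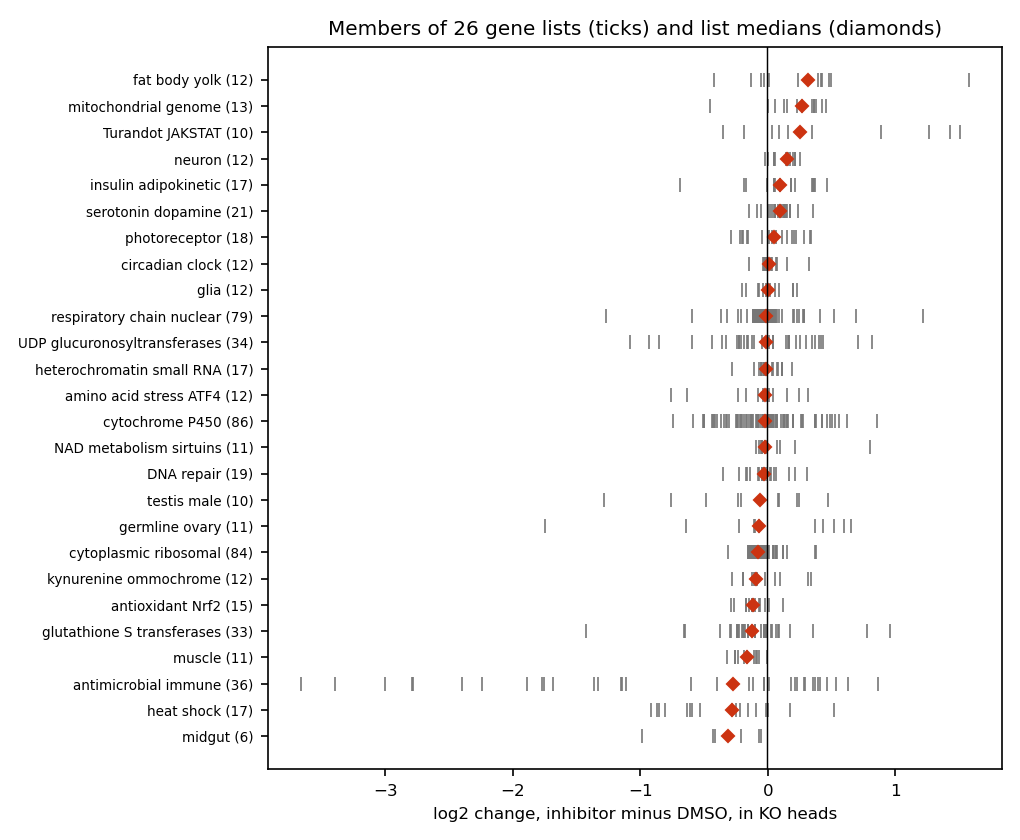
Log2 change, inhibitor minus DMSO, in KO heads (horizontal axis) of every tested member (ticks) of the 26 gene lists, with list medians (diamonds) and the number tested in brackets; the vertical line is the median of all genes, -0.0056. The antimicrobial list reaches lowest, down to -3.66, and the medians lie between -0.31 (midgut) and 0.32 (fat body and yolk).

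Female fat body genes had wide errors and none was called. Of 12, 8 were higher (median 0.32), with the lipase gene CG5966 at 92.8, 73.9 and 63.1 CPM with DMSO and 245, 387 and 52.1 CPM with inhibitor (1.57, SE 1.43) and the lipid droplet gene Lsd-2 at 0.42 (SE 0.70). The 3 yolk protein genes took 10.1% ± 0.551 (SD, n = 3) of counts with DMSO and 11.4% ± 1.65 (SD, n = 3) with inhibitor (two-sided exact permutation p = 0.3, where 3 against 3 cannot go below 0.1). That difference of 1.35 percentage points was 0.506 to 2.16 on leaving out 1 KO head at a time, lowest without the treated head of replicate 1 and highest without that of replicate 3. The 20 most abundant rows, among them the transposable element copy springer{}300, took 22.1% ± 1.70 and 24.2% ± 1.81 (SD, n = 3 each, exact permutation p = 0.2). Transposable element rows took 4.05% ± 0.155 and 4.33% ± 0.629 (SD, n = 3 each; exact permutation p = 0.7), and the direction turned without the treated head of replicate 3 (-0.07 percentage points).

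Mitochondrial transcripts leaned upward. Of the 13 protein genes of the mitochondrial genome, 11 were higher (median 0.27), with mt:ATPase6 at 577, 504 and 537 CPM with DMSO and 791, 651 and 775 CPM with inhibitor (0.45, SE 0.24) and mt:ND4 at 525, 476 and 367 CPM and 591, 517 and 666 CPM (0.37, SE 0.23). Only the first of these was apart between groups. All mitochondrial rows together took 1.26% ± 0.0708 of counts with DMSO and 1.47% ± 0.166 with inhibitor (SD, n = 3 each; exact permutation p = 0.2). The nuclear genes of the respiratory chain did not share this, with 35 of 79 higher (median -0.01), and COX7AL2 was at -0.37 (SE 0.17). Cytoplasmic ribosomal protein genes were lower for 71 of 84 (median -0.08), and 75 of the 84 were highest in the untreated head of replicate 1. None of the 84 had groups apart, and RpL38 (0.15, SE 0.25) and RpS30 (-0.14, SE 0.35) had the smallest p among the members above 1 CPM.

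The remaining lists held little signal. Of 19 DNA repair genes, 7 were higher (median -0.03), with mus304 at 0.31 (SE 0.17) and p53 apart at 6.13 to 6.45 CPM with DMSO and 5.45 to 5.81 CPM with inhibitor. Of 17 heterochromatin and small RNA genes, 8 were higher (median -0.02), with the histone methyltransferase gene egg apart at 24.3 to 26.4 and 22.7 to 23.8 CPM and Hsp83 overlapping at -0.28 (SE 0.26). The 11 ovary genes (5 higher, median -0.07) and the 6 midgut genes tested (0 higher, median -0.31) had a mean of at least 1 CPM in KO for 3 and 2 genes. Among these were otu (0.44, SE 0.25) and yl (-0.64, SE 0.46) of the ovary list, and Mal-A1 (-0.43, SE 0.83) and Amy-p (-0.05, SE 0.85) of the midgut list. The testis and male list had 5 of 10 higher (median -0.06), and its 2 genes with an unadjusted p under 0.05 were roX1 and roX2.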

How the data were processed

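The 12 libraries, 3 in each of 4 groups, come from total RNA depleted of ribosomal RNA. The authors deposited estimated counts per feature, not scaled to a common depth; per the submitters' processing notes, Trim Galore 0.6.7, STAR 2.7.9a, Salmon 1.10.1 and the build BDGP6 were used, and a strand setting is not given in the sources used here. Of 24278 rows, 17895 gene rows were used, of which 17855 matched a symbol; 5898 transposable element rows and 485 other rows entered composition shares only. Counts of CG42557 and CG42558 were summed, counts were rounded, and genes passing filterByExpr with a minimum count of 10 were fitted with edgeR 4.0.16 (R 4.3.3): 12 libraries, 4 group coefficients, TMM scaling, quasi-likelihood test, Benjamini-Hochberg adjustment at 0.05 over 14154 genes. SE is the log2 change over the root of the F statistic. Spike-in counts were not used here. Positions are from the Ensembl annotation of BDGP6.54. The scripts were tested on simulated data.

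The members, the 26 gene lists and the tests were chosen with earlier results of these data known. Named genes were those called, the 12 of smallest p in each direction (mean of at least 1 CPM in KO, no overlap), the kynurenine list, Sirt6, the summed pair, and the 2 members of smallest p with at least 1 CPM in each other list. Alternatives were DESeq2 1.42.0, voom in limma 3.58.1, scaling, filters, fewer libraries and a replicate block. Floors cover counting error only.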

Additional observations from a re-analysis of the deposited data

How the results depend on the processing

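The count of 0 genes called in KO held with median-of-ratios scaling, both other count filters, yolk counts left out and the replicate block (also 0). DESeq2 called 63, voom 3, the 6 KO libraries alone 6 (0 with the replicate block), 10 libraries 9, and separate rows for CG42557 and CG42558 gave 1. Chosen after seeing the data, leaving out the 60 genes high in w1118 with inhibitor, replicate 2, left 3 and 3 of those 6 and 9. Leaving out each library gave 0 to 5: 1 without KO DMSO replicate 2 (Polr3K), 1 without KO inhibitor replicate 1 (CG30120) and 5 without w1118 inhibitor replicate 2, all among the 60; leaving out w1118 libraries was added after seeing the data. Genes at an unadjusted p under 0.05 numbered 1451 with voom, 907 in the 6 KO libraries (794 with the replicate block) and 976 in 10 libraries. For the difference between genotypes DESeq2 called 62, and leaving out each library gave 0 to 1. Of the 63 genes of DESeq2, 43 had a change of at least 3 in size and 42 had groups apart in KO. Several of the largest changes came from rows at 0 in heads of both KO groups. The histone copy His4:CG33883 (change 25.0) was at 0 CPM in each untreated head and 13.4, 0 and 9.76 CPM with inhibitor.

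Of 87 named genes, 78 kept their direction in every alternative run (19 to 23 per gene), and 12 of 1994 values had the other sign. Same-numbered KO libraries come from different flies; their deviations correlated at 0.173, 0.0139 and -0.0467, so the numbers gave no sign of pairing, and the replicate block changed no call of the 12-library model. With 3 heads a group and a median SE of 0.25, the 12-library model called no change of any size, that of Achl (1.44, SE 0.23) included. The lack of calls therefore does not show that changes, small or large, were absent.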
